A study of Mus musculus with 8 samples.

Results

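Heat shock proteins and their DnaJ partners are the molecular chaperones that help proteins fold, keep them from clumping and pass damaged ones on for refolding or breakdown. The set described here holds the mouse genes of the Hsp70, Hsp110, Hsp90, Hsp60, Hsp10, small heat shock protein and DnaJ (Hsp40) families. They were chosen by name from the GENCODE annotation of GRCm38: protein-coding genes whose symbol begins with Hspa, Hspb, Hspd, Hspe, Hsph or Hsp90, or with Dnaja, Dnajb or Dnajc, followed by a number. This gave 71 of the 41388 genes in the tables. By their main place in the cell, 37 were set down as proteins of the cytosol and nucleus, 13 of the endoplasmic reticulum (ER), 10 of the mitochondria and 11 as other or not placed. Hspa14, a further gene the names would take, was not analysed here.

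The cells were macrophages sorted from the epididymal fat pad, a visceral white adipose depot (eWAT), of 4 male MitoFat mice fed normal chow. MitoFat is a reporter strain that marks the mitochondria of adipocytes, and all 8 libraries came from it, so every cell compared carried the same reporter background. The sources used here give neither the promoter that drives the reporter nor the age of the mice. From each mouse, live CD45+ F4/80+ CD64+ cells were sorted into those without (mtD2-) and those with (mtD2+) the marked adipocyte mitochondria, which gave 4 pairs of libraries, and the comparison asks how the macrophages that had received mitochondria differed from their neighbours that had not.

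Chaperones of the Hsp70 family bind and release unfolded stretches of protein in a cycle driven by ATP. DnaJ proteins bring them their clients and start ATP hydrolysis, Hsp110 proteins release the spent nucleotide, and Hsp90 proteins take over partly folded clients such as kinases and steroid receptors. The cytosol, the ER and the mitochondria each hold their own Hsp70 and DnaJ proteins. Unfolded protein in the cytosol acts on the cytosolic members through heat shock factor 1 (HSF1), and unfolded protein in the ER acts on the ER members through a separate unfolded protein response.

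The tables hold 18462287 to 27464399 gene-assigned counts per library. The mtD2- library of mouse 4 stood apart: protein-coding transcripts of the mitochondrial chromosome took 0.524% of its counts, against 1.99% to 3.00% in the other 7 libraries, and it lay farthest out on the first principal component (-81.1, against -28.3 to 60.5). Results are therefore given with and without mouse 4 where this matters. The macrophage marker list was present in all libraries, with a summed level of 9905 to 11825 CPM (counts scaled to a common library size, here with TMM factors) in mtD2- and 8746 to 10545 in mtD2+. Of its 8 genes, Mertk was higher, Adgre1, which encodes the sorted antigen F4/80, was lower, and 6 did not pass the test. In sorted populations such as these, fewer cells of a type and less RNA per cell cannot be told apart.

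Of the 71 chaperone genes, 61 had enough counts to be tested. The other 10 had at most 50 counts in any library, and 4 of them (Dnajb8, Hspb3, Dnajc5b and Dnajc5g) had none. In edgeR's quasi-likelihood test, paired by mouse and adjusted over all 13933 genes tested, 8 chaperone genes were higher in mtD2+ macrophages and 0 were lower. Over all genes tested, 3.72% were called higher and 1.78% lower, or 5.5% in either direction. The 8 were Hsph1, Dnaja1, Hsp90ab1, Hsp90aa1, Hspa8, Hspa1b, Dnajb13 and Hspe1. Of these, 7 belong to the cytosol and nucleus (7 of 32 tested), 1 to the mitochondria (1 of 10), and the ER had none (0 of 13). At an unadjusted p under 0.05, without correction, 13 chaperone genes lay higher and 7 lower, or 20 of 61, where the share of all genes in either direction was 22.8%. In 22 of 61 the mtD2+ library differed from the mtD2- library the same way in all 4 mice, where 32.4% of all genes did. DESeq2 called 11 of 61 members higher and 0 lower, where it called 1117 of all 14613 genes higher and 673 lower. Its 11 were the 8 named above with Dnajb4, Hspa1a and Hspa9. Limma voom called 8 of 61 higher and 0 lower, where it called 694 of all 13933 genes higher and 372 lower.

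Of the 8 genes, 7 are on a list of 14 members known to be induced by heat shock, and Dnajb13 is not. The list was drawn up from textbook knowledge with earlier results of these data known, so its counts are a description and no independent evidence, and it includes Hspa8 and Hsp90ab1, which are abundant without stress and rise further with heat. All 14 heat-inducible genes were tested, with a median of 0.69 on the log2 scale of mtD2+ over mtD2-. Of the 14, 7 passed, and 8 differed the same way in all 4 mice. All 14 estimates lay above 0, but those of Hspa4l (0.07, SE 0.24), Hspb1 (0.23, SE 0.55) and Hspb8 (0.82, SE 1.00) were within 1 SE of 0, and Hspa4l and Hspb1 were higher in mtD2+ in 1 of 4 mice each. The 47 tested members outside the list had a median of -0.08, with 22 above 0 and 25 below, and the median of all genes tested was -0.00. The median of the heat-inducible genes was 0.72, 0.57, 0.72 and 0.59 in mice 1 to 4, so that it lay above 0 in each of the 4 pairs.

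**Figure D1:**
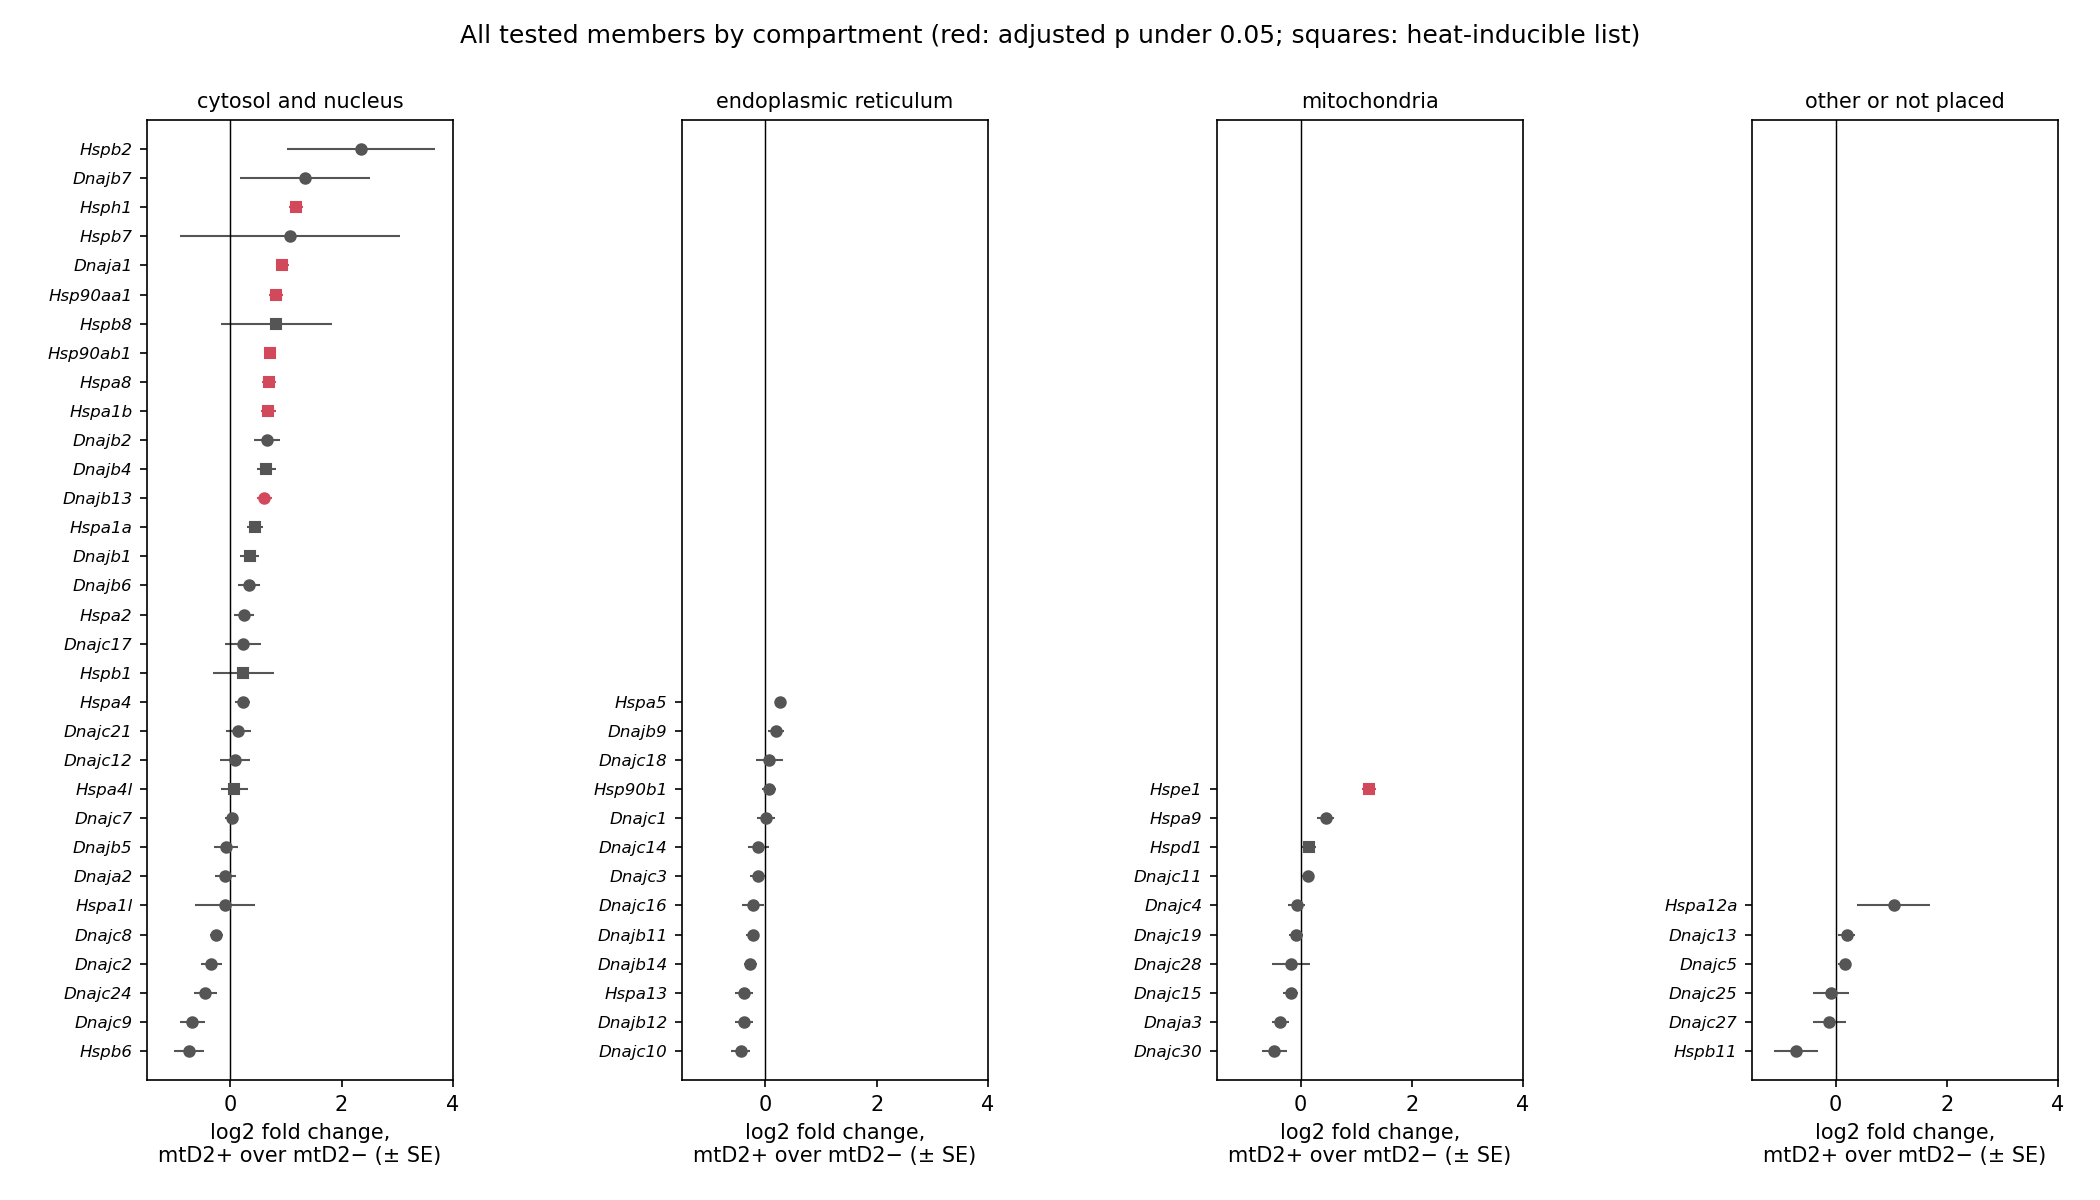
Log2 fold change (mtD2+ over mtD2-, with its standard error) of the 61 tested chaperone genes, in 4 panels by compartment and ordered within each panel by fold change. Red marks the 8 genes with an adjusted p under 0.05 and squares mark the 14 heat-inducible genes, all of which lie to the right of 0, while the 13 ER genes lie between -0.45 and 0.27.

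The heat shock factor binds repeats of the 5-base unit NGAAN in alternating orientation. Because 7 of the heat-inducible members rose, the 300 bases around the start sites of all members (250 before and 50 after) were searched on both strands for GAANNTTC, which holds 2 such units, and for a longer motif, GAANNTTC followed directly by NNGAA, which holds 3. RefSeq windows of the build GRCm38.p6 were matched for 57 of the 71 members, and those without one include Hspa8, Hsp90aa1 and Hsp90ab1. The longer motif was found in 4 of the 57 (Hspe1, Hspd1, Hsph1 and Dnajb6), against 0.662% of the 27025 genes with a window. The shorter motif was found in 14 of 57 members and in 9.04% of all genes. It was present in 8 of the 11 heat-inducible members with a window, in 3 of the 38 other tested members with one, and in 0 of 11 ER members. The stretches below are shown because they belong to members that rose (Hspe1, Hsph1, Dnaja1 and Hspa1b), to their neighbours in the genome (Hspd1 and Hspa1a) or to the remaining member with the longer motif (Dnajb6), with the matched repeat in capitals, 5′ to 3′ on the strand of the gene. The first pair is a single place read in both directions.
Hspe1, chr1:55088053-55088082, plus strand: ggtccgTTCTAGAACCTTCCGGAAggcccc
Hspd1, chr1:55088053-55088082, minus strand: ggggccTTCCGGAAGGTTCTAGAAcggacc
Hsph1, chr5:149636280-149636308, minus strand: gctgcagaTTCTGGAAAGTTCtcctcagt
Dnaja1, chr4:40722333-40722362, plus strand: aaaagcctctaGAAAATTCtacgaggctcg
Hspa1b, chr17:34959324-34959353, minus strand: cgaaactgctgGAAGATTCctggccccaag
Hspa1a, chr17:34972242-34972271, minus strand: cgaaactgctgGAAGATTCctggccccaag
Dnajb6, chr5:29735844-29735872, plus strand: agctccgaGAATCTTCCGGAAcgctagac
A match describes these letters and is not evidence of binding. The Hsph1 repeat lies after the start site, at positions 16 to 28. The Dnaja1 repeat lies in the window of its first RefSeq start site, and the windows of its later start sites hold none. Dnajb6, which has the longer motif, did not pass edgeR's test (log2 fold change 0.34, SE 0.20, adjusted p = 0.348), so holding the motif and passing the test did not always go together.

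Among the cytosolic Hsp70 machinery, the constitutive Hsp70 Hspa8 (also called Hsc70, which also uncoats clathrin vesicles and serves chaperone-mediated autophagy) was measured at 758, 524, 588 and 770 CPM in the mtD2- libraries of mice 1 to 4 and at 1149, 1123, 868 and 1109 CPM in the mtD2+ libraries. Every mtD2+ library lay above every mtD2- library. The gene, at chr9:40800984-40805200, rose 1.62-fold (log2 fold change 0.70, SE 0.12, adjusted p = 0.0164 in edgeR's test). Groups without overlap were found for 9 of 61 members, where 12.6% of all genes had them. Of these, 4 lay higher in mtD2+ (Hspa8, Dnaja1, Hsp90aa1 and Hspe1), where 6.55% of all genes did.

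Hsph1 encodes Hsp110 (Hsp105), the nucleotide exchange factor that resets Hsp70 and helps it to pull aggregates apart. It stood at 167, 131, 79.7 and 335 CPM in mtD2- and at 308, 298, 226 and 736 CPM in mtD2+. Mouse 4 was the highest in both populations, so the groups overlapped, yet within each mouse the mtD2+ library was the higher one. Hsph1 (chr5:149614287-149636376) rose 2.26-fold, by 1.18 on the log2 scale (SE 0.12, adjusted p = 0.00249), the largest change among the cytosolic members that passed edgeR's test. Its log2 ratio was 0.89, 1.19, 1.504 and 1.13 in mice 1 to 4.

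The inducible Hsp70 is encoded by 2 neighbouring, near-identical genes, Hspa1a (chr17:34969190-34972156) and Hspa1b (chr17:34956436-34959238), so counts may be split between them in a way the counting decides. Their 300-base start windows, which lie mostly before the start site, share 296 bases. The identity of their exons was not measured here. Hspa1b was measured at 293, 294, 185 and 672 CPM in mtD2- and 563, 427, 367 and 808 CPM in mtD2+. Hspa1a was measured at 773, 763, 595 and 1498 CPM in mtD2- and 1286, 993, 977 and 1463 CPM in mtD2+. In both genes the mtD2- library of mouse 4 was far above the other mtD2- libraries, and for Hspa1a it exceeded all 4 mtD2+ libraries. Hspa1b rose (log2 fold change 0.68, SE 0.14, adjusted p = 0.0271 in edgeR), and Hspa1a did not pass the test (0.45, SE 0.14, adjusted p = 0.105 in edgeR). With the counts of both genes summed, the inducible Hsp70 did not pass either (0.52, SE 0.14, adjusted p = 0.0675 in edgeR). DESeq2's Wald test with all mice called both genes higher, Hspa1a at an adjusted p of 0.00944 (log2 fold change 0.46). Without mouse 4, both passed edgeR's test, with adjusted p = 0.0238 for Hspa1a (log2 fold change 0.61) and 0.013 for Hspa1b (0.82). The bases before the Hspa1b start site are shown because they hold the repeat that both copies share, in capitals.
Hspa1b, chr17:34959239-34959488, minus strand: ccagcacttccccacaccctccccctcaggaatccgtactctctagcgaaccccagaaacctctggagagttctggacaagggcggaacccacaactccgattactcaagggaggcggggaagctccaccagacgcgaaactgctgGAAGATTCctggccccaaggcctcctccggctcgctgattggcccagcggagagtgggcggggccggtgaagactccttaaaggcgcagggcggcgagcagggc

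Both cytosolic Hsp90 genes rose. Hsp90ab1, the constitutive form (chr17:45567775-45573271), was the most abundant chaperone transcript per kilobase of exon in these cells, with a median of 1048 CPM per kilobase over the 8 libraries, and took 30.1% of all counts of the set. Hsp90ab1 stood at 2529, 2088, 1831 and 3565 CPM in mtD2- and at 4108, 3879, 2720 and 5596 CPM in mtD2+. The mtD2+ library of mouse 3 fell below the mtD2- library of mouse 4, so the groups overlapped, while all 4 pairs moved the same way. The change was 1.63-fold (log2 0.70, SE 0.10, adjusted p = 0.00768 in edgeR's test).

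Hsp90aa1, the more strongly inducible form (chr12:110690605-110702728), stood at 449, 420, 267 and 482 CPM in mtD2- and at 797, 626, 614 and 782 CPM in mtD2+. The groups did not overlap. It rose 1.77-fold (log2 0.82, SE 0.13, adjusted p = 0.00895 in edgeR's test), and mouse 3 had the largest ratio (log2 1.20, against 0.57 to 0.83 in the other mice).

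Of the DnaJ proteins, the class A protein Dnaja1 (chr4:40722150-40737149), a farnesylated general partner of Hspa8, was measured at 218, 149, 139 and 207 CPM in mtD2- and 337, 339, 285 and 387 CPM in mtD2+. All mtD2+ libraries lay above all mtD2- libraries, and Dnaja1 rose 1.91-fold (log2 0.94, SE 0.12, adjusted p = 0.00486 in edgeR's test). It was the only one of 3 tested class A genes to do so: Dnaja2, its cytosolic paralogue, had a log2 fold change of -0.09, and Dnaja3 is mitochondrial and is described below. Dnajb13, a class B protein known from the radial spokes of motile cilia and sperm tails, was measured at 44.1, 29.8, 37.4 and 22.7 CPM in mtD2- and at 54.1, 44.1, 62.9 and 40.7 CPM in mtD2+. Its groups overlapped, with mouse 4 the lowest in both, and it rose 1.53-fold (log2 0.61, SE 0.14, adjusted p = 0.0422 in edgeR's test). Dnajb13 lies at chr7:100503018-100514960, end to end with the more abundant Ucp2, an uncoupling protein gene of the opposite strand whose end is 997 bases away. Ucp2 was measured at 1353 to 1872 CPM and did not pass the test (log2 fold change -0.24, SE 0.11, adjusted p = 0.237 in edgeR), and its part in the counts of Dnajb13 was not tested.

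Dnajb1, the classic heat-induced partner of Hsp70, and its class B relative Dnajb4 were picked after their values were seen. Dnajb4 stood at 49.1, 34.1, 21.4 and 30.7 CPM in mtD2- and 54.4, 50.4, 46.9 and 52.2 CPM in mtD2+. Its log2 fold change of 0.65 (SE 0.17) missed the threshold, with an adjusted p of 0.0644 in edgeR's test. Dnajb1 stood at 213, 165, 175 and 393 CPM in mtD2- and at 248.8, 291, 274 and 315 CPM in mtD2+, so that mouse 4 gave the highest of all 8 values in its mtD2- cells. Its log2 fold change was 0.34 (SE 0.18, adjusted p = 0.290 in edgeR's test). In all, 1 of 11 tested class B genes and 0 of 24 tested class C genes passed, where 5.5% of all genes tested did. The class C genes ranged from -0.69 to 0.23, and the classes were not compared by a test.

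The small heat shock proteins, which hold unfolding proteins without ATP, gave 0 calls among 6 tested, where 5.5% of all genes were called. Hspb1 (Hsp27), Hspb2, Hspb7 and Hspb8 had mean levels of at most 2.37 CPM in either group, and their standard errors of 0.55 to 1.98 on the log2 scale leave a change of the size seen in Hsph1 not detectable at this depth. Only Hspb6 and Hspb11 lay below 0, and Hspb6 had a mean level of 8.49 ± 1.36 CPM in the mtD2- libraries, against 5.04 ± 0.648 in the mtD2+ libraries (SD, n = 4). Its groups did not overlap, but its log2 fold change of -0.75 (SE 0.27, adjusted p = 0.138 in edgeR's test) did not pass. Together with Hspb6, the members Dnajc9, Dnajc24, Dnajb12 and Dnajb14 lay lower in every mtD2+ library than in any mtD2- library, which makes 5 of 61, where 6.01% of all genes did so, and none of the 5 passed edgeR's test.

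**Figure D2:**
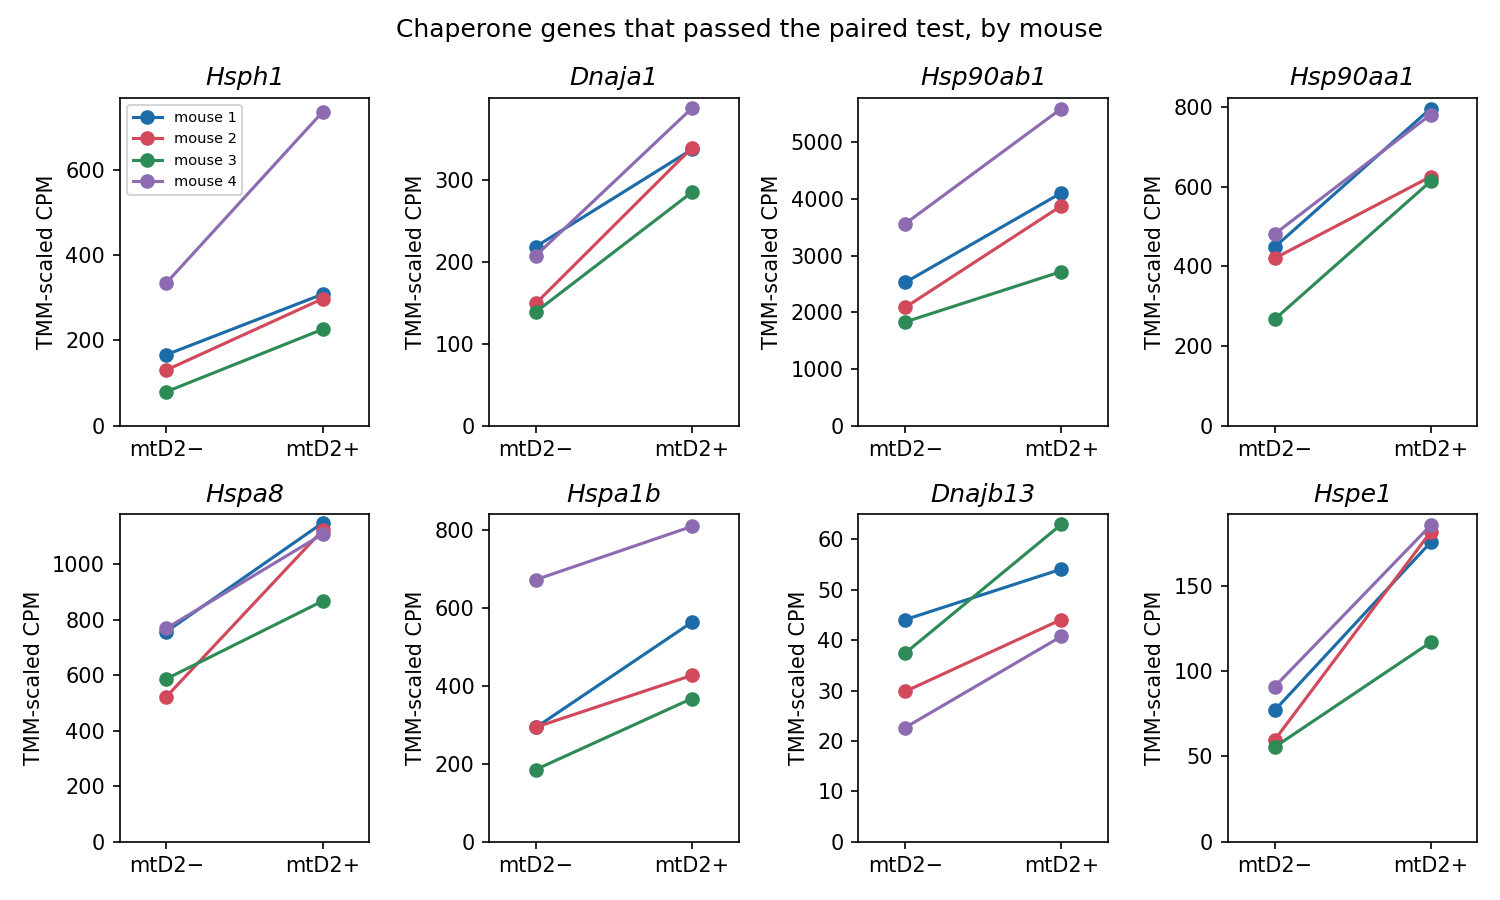
Level in TMM-scaled CPM, on linear axes from 0, of the 8 chaperone genes that passed the paired test, in the mtD2- and mtD2+ library of each mouse. Each line joins the 2 libraries of a mouse, and all lines rise, while mouse 4 (purple) starts well above the other mice for Hsph1, Hsp90ab1 and Hspa1b.

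None of the 13 ER members passed edgeR's test, where 5.5% of all genes tested were called in either direction. Their 13 log2 fold changes had a median of -0.13, with 5 above and 8 below 0. Hspa5 (BiP, also Grp78; chr2:34771970-34776531), the ER Hsp70 and a regulator and target of the unfolded protein response, was the second most abundant member per kilobase, with a median of 426 CPM per kilobase. Its levels were 1460, 1196, 1155 and 1533 CPM in mtD2- and 1583, 1580, 1328 and 1955 CPM in mtD2+. All 4 pairs were higher in mtD2+ by a small margin, the groups overlapped, and the log2 fold change was 0.27 (SE 0.10, adjusted p = 0.163 in edgeR's test). Hsp90b1 (Grp94), the ER Hsp90, was close to level, at 439, 435, 448 and 364 CPM in mtD2- and 412, 440, 408 and 504 CPM in mtD2+ (log2 fold change 0.06, SE 0.13). Dnajc10 (ERdj5), a disulfide reductase that helps to clear misfolded ER proteins, had 40.4, 38.7, 49.5 and 24.5 CPM in mtD2- and 36.5, 28.2, 26.6 and 19.97 CPM in mtD2+. It was lower in each of the 4 mice, with overlapping groups, and its log2 fold change of -0.45 (SE 0.16) did not pass (adjusted p = 0.146 in edgeR's test).

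Dnajb12 and Dnajb14 are related DnaJ proteins anchored in the ER membrane that present clients to cytosolic Hspa8. Dnajb12 was measured at 31.3, 29.5, 33.4 and 29.8 CPM in mtD2- and 22.5, 25.8, 20.95 and 25.6 CPM in mtD2+. Dnajb14 was measured at 58.1, 62.5, 67.1 and 70.9 CPM in mtD2- and 52.6, 54.4, 53.6 and 52.6 CPM in mtD2+. Neither gene's groups overlapped, and both lay lower in mtD2+ by a margin that did not pass edgeR's test, with log2 fold changes of -0.39 (SE 0.16, adjusted p = 0.183) and -0.27 (SE 0.12, adjusted p = 0.205). At an unadjusted p under 0.05, 1 ER gene lay higher and 4 lower, where 22.8% of all genes were under it in either direction. DESeq2 and limma voom also called 0 ER genes.

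The start windows of the ER members were searched for the sequence known from the unfolded protein response. The ER stress response element, CCAAT followed by CCACG with 9 bases between them, added after the data were seen, was searched on both strands and was found in 3 of 11 ER members with a window (Hspa5, Hsp90b1 and Dnajc3), in 0 of 31 cytosolic members and in 0.137% of all genes. Its parts are common letters: CCACG was found in 9 of 11 ER members and 35.5% of all genes, and CCAAT in 5 of 11 ER members and 41.1% of all genes. The stretches are shown to set the ER element beside the heat shock repeats above, with the element in capitals, and that of Hsp90b1 holds it on both strands.
Hspa5, chr2:34772020-34772048, plus strand: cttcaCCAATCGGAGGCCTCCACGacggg
Dnajc3, chr14:118937822-118937850, plus strand: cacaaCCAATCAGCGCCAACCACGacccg
Hsp90b1, chr10:86705528-86705661, minus strand: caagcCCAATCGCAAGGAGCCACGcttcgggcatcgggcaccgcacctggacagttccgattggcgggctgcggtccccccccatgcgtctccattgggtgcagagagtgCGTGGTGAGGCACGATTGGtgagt
These 3 genes had log2 fold changes of 0.27, -0.13 and 0.06 in the order shown, and none passed the test.

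In the mitochondria, Hspe1 (Hsp10, the lid of the Hsp60 folding chamber; chr1:55088132-55091307) had the largest change of all members that passed. Its levels were 77.0, 59.6, 55.5 and 90.8 CPM in mtD2- and 175, 181, 117 and 185 CPM in mtD2+. The lowest mtD2+ library was above the highest mtD2- library, and Hspe1 rose 2.34-fold (log2 1.22, SE 0.13, adjusted p = 0.00249 in edgeR's test). Hspd1 (chr1:55077835-55088243) encodes Hsp60, the chamber itself, and is transcribed on the opposite strand. One of its RefSeq start sites lies 216 bases from that of Hspe1. It was measured at 54.7, 55.7, 51.0 and 82.1 CPM in mtD2- and 62.8, 59.6, 45.8 and 112 CPM in mtD2+. Its groups overlapped almost fully, mouse 3 went the other way, and it did not pass (log2 fold change 0.15, SE 0.13, adjusted p = 0.543 in edgeR's test). RefSeq also gives Hspd1 another start site, farther upstream and inside the span of Hspe1, whose window holds no such repeat. The run of repeats shown above lies before the start site of Hspe1 and before the Hspd1 site 216 bases from it, within the annotated span of Hspd1. It lies after the upstream Hspd1 site. The exons of the 2 genes overlap by 112 bases on opposite strands, so some reads could belong to either gene if strand was not used.

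The difference between Hspe1 and Hspd1 was itself examined in each mouse. The log2 ratio of Hspe1 exceeded that of Hspd1 by 0.99, 1.51, 1.23 and 0.59 in mice 1 to 4, a mean of 1.08 ± 0.39 (SD, n = 4 mice). An exact two-sided sign-flip permutation test gave p = 0.125, the smallest that 4 pairs allow, and 0.156 after adjustment over the 5 pairs of relatives compared. These pairs were picked after their values were seen.

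The other mitochondrial members had log2 fold changes between -0.47 and 0.45, and none passed edgeR's test. Hspa9 (mortalin, Grp75), the mitochondrial Hsp70 that pulls imported proteins across the inner membrane, had 111, 83.2, 83.2 and 109 CPM in mtD2- and 145, 130, 146 and 106 CPM in mtD2+. It was higher in mtD2+ in mice 1 to 3 and about level in mouse 4 (log2 ratio -0.04). The log2 fold change of 0.45 (SE 0.15) did not pass edgeR's test (adjusted p = 0.112), but passed without mouse 4 (0.61, adjusted p = 0.0395). With all mice, it passed DESeq2's Wald test (0.46, adjusted p = 0.0290). Dnaja3 (Tid1), a mitochondrial partner of Hspa9, had 29.0, 34.1, 27.0 and 35.7 CPM in mtD2- and 21.6, 29.8, 24.8 and 21.8 CPM in mtD2+. It was lower in each mouse, with overlapping groups, and did not pass edgeR's test (log2 fold change -0.36, SE 0.16, adjusted p = 0.219). Dnajc30, which is linked to complex I and the ATP synthase, stood at -0.47 (SE 0.23, adjusted p = 0.263 in edgeR's test) from 12.4, 15.2, 12.8 and 15.2 CPM in mtD2- and 12.4, 11.1, 8.64 and 8.26 CPM in mtD2+. The median of the 10 mitochondrial members was -0.07, with 4 above and 6 below 0.

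Relatives that work in different compartments were set side by side, and none of the differences passed a test. In the Hsp70 family, the log2 ratio of Hspa8 exceeded that of the ER member Hspa5 by 0.43 ± 0.22 (SD, n = 4 mice) and that of the mitochondrial Hspa9 by 0.25 ± 0.36, in 4 and 3 of the 4 mice. In the Hsp90 family, Hsp90aa1 exceeded the ER member Hsp90b1 by 0.76 ± 0.48 and Hsp90ab1 exceeded it by 0.64 ± 0.31, each in 4 of 4 mice. The exact permutation p was 0.125 for each of these but the pair of Hspa8 and Hspa9 (0.375), and the values adjusted over the 5 pairs were 0.156 and 0.375. With 4 mice this test cannot reach 0.05.

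**Figure D3:**
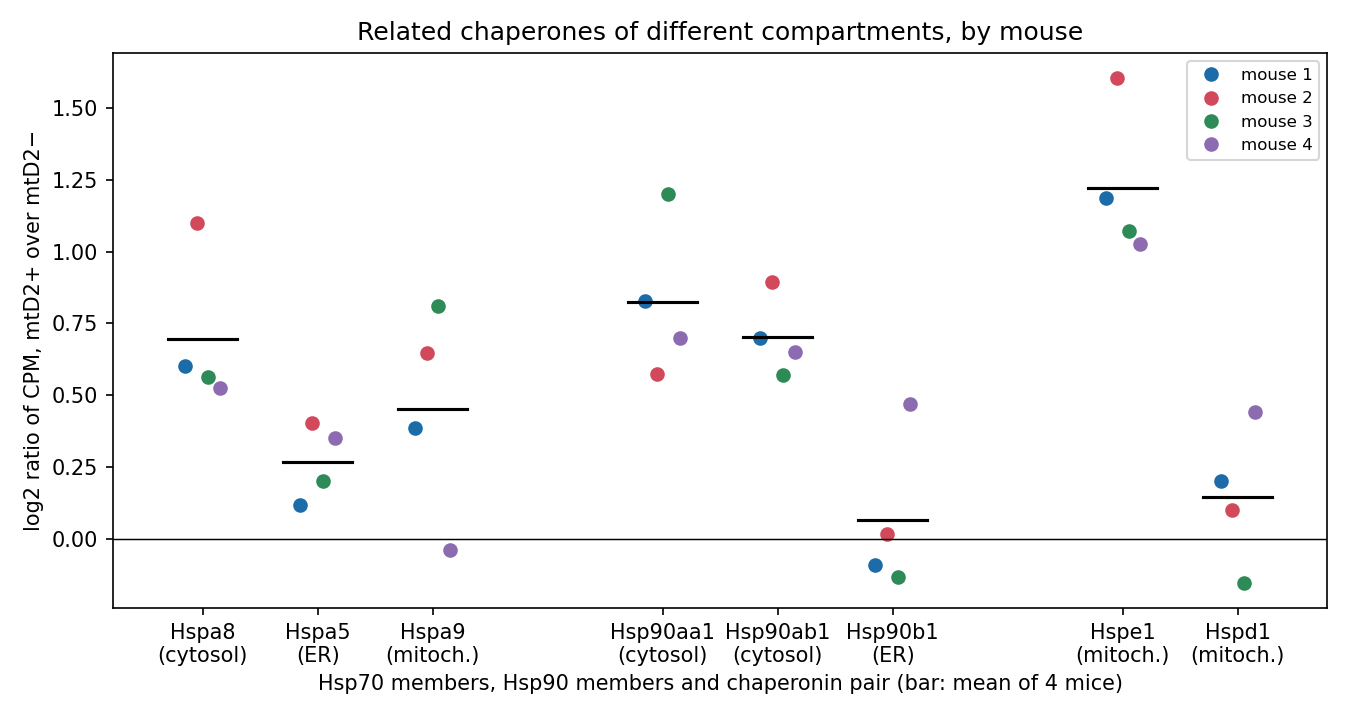
Log2 ratio of CPM, mtD2+ over mtD2-, in each of the 4 mice (points) with their mean (bars), for related chaperones of the cytosol, ER and mitochondria. The points of Hspe1 (1.03 to 1.61) lie above those of Hspd1 (-0.16 to 0.44), and those of Hsp90aa1 and Hsp90ab1 above those of Hsp90b1.

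Summed by compartment, the cytosolic members took 6134, 5208, 4566 and 8546 CPM in mtD2- and 9482, 8698, 7055 and 11854 CPM in mtD2+. The ER members took 2366, 2099, 2082 and 2344 CPM in mtD2- and 2415, 2453, 2142 and 2868 CPM in mtD2+. The mitochondrial members took 457, 433, 418 and 520 CPM in mtD2- and 595, 602, 521 and 610 CPM in mtD2+. The sums were higher in mtD2+ in all 4 mice in each compartment, including the ER, whose median fold change lay below 0. Hspa5 alone held 13.7% of all counts of the set. It took 1155 to 1533 CPM of the ER sums in mtD2- and 1328 to 1955 CPM in mtD2+. Of the 13 ER members, 8 lay below 0. In the mitochondrial sums, Hspe1 took 55.5 to 90.8 CPM in mtD2- and 117 to 185 CPM in mtD2+. Of the 10 mitochondrial members, 6 lay below 0. A higher sum in these 2 compartments therefore does not mean that most of their members were higher. In all, the chaperone set made up 0.777% to 1.07% of the counts of an mtD2- library and 0.999% to 1.49% of those of an mtD2+ library.

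**Figure D4:**
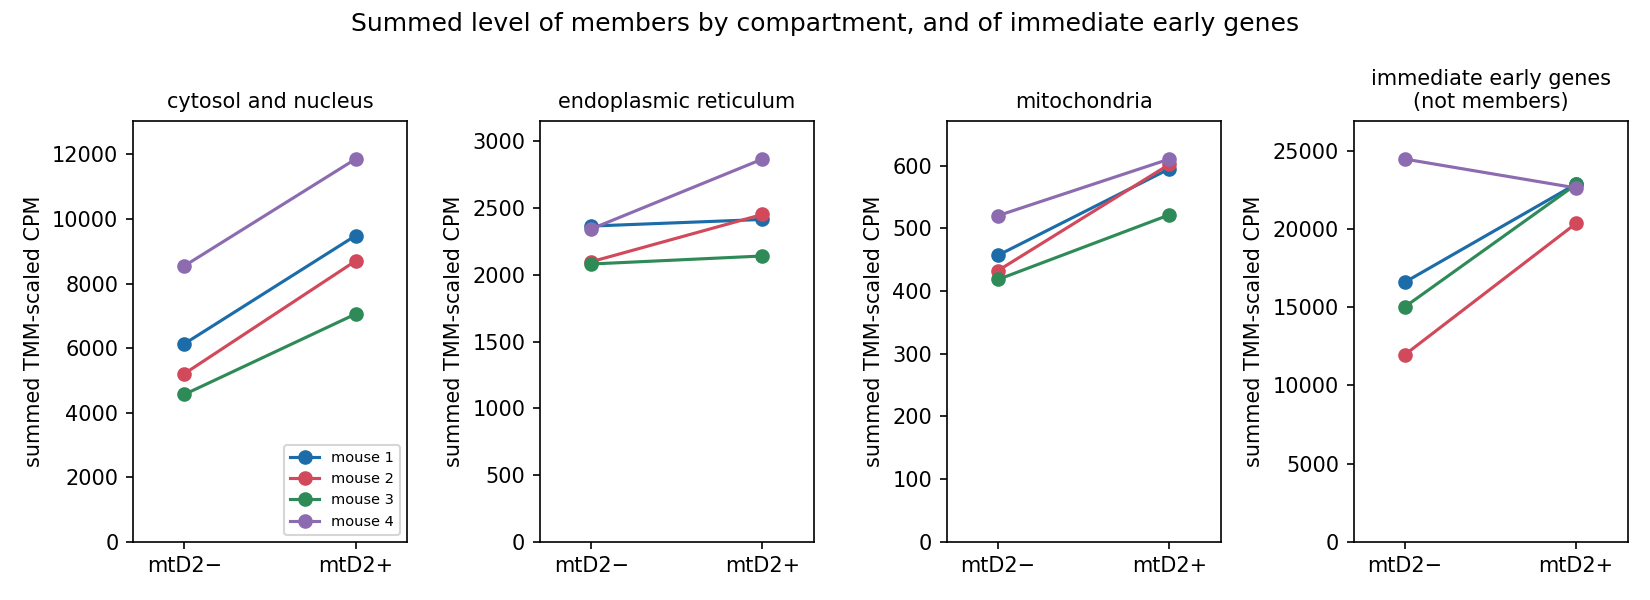
Summed level in TMM-scaled CPM, on linear axes from 0, of the cytosolic, ER and mitochondrial chaperone genes and of 19 immediate early genes, in the mtD2- and mtD2+ library of each mouse. The cytosolic sums lie between 4566 and 8546 in mtD2- and between 7055 and 11854 in mtD2+, and mouse 4 is the one mouse whose immediate early gene sum is lower in mtD2+.

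The members placed in no single compartment gave 0 calls among 6 tested, where 5.5% of all genes were called. They also gave 0 at an unadjusted p under 0.05 in edgeR, and 0 called by DESeq2 and limma voom. Hspa12a, a distant Hsp70 relative, had a log2 fold change of 1.05 with an SE of 0.66 (adjusted p = 0.388 in edgeR's test), and its mtD2- library of mouse 4 held 0.184 CPM against 2.69 to 10.6 in the other mtD2- libraries. Dnajc5 (cysteine string protein, a vesicle chaperone) and Dnajc13 (RME-8, of endosomes) were well measured, with mean levels of 123 ± 4.26 and 101 ± 19.7 CPM in the mtD2- libraries, against 139 ± 17.7 and 115 ± 7.86 in the mtD2+ libraries (SD, n = 4). Their log2 fold changes were 0.16 (SE 0.12) and 0.20 (SE 0.15). Hspb11, a small protein of the intraflagellar transport complex, stood at -0.71 (SE 0.40, adjusted p = 0.334 in edgeR's test).

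Other genes of the folding pathways were read from lists in the same fit, in which 5.5% of all genes tested were called. Of 28 heat shock factors and cytosolic co-chaperones, 1 rose and 0 fell: Fkbp5, a prolyl isomerase that joins Hsp90 to steroid receptors, from 87.6, 52.4, 84.8 and 50.4 CPM in mtD2- to 113, 91.7, 142 and 106 CPM in mtD2+, without overlap (log2 0.75, SE 0.13, adjusted p = 0.0164 in edgeR's test). Stip1 (Hop), which passes clients from Hsp70 to Hsp90, had a log2 fold change of 0.52 (adjusted p = 0.0557), and Bag3, an Hsp70 exchange factor of selective autophagy, 0.57 (adjusted p = 0.0792), neither of which passed edgeR's test. Hsf1, looked at after its values were seen, had a log2 fold change of -0.05 (SE 0.18). The list's median was -0.03, and 27 of its 28 genes did not pass.

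The cytosolic chaperonin TRiC and prefoldin, which fold actin and tubulin, gave 0 calls among 14 in edgeR, with 1 at an unadjusted p under 0.05 and a median of -0.16. Over all genes tested, 5.5% were called and 22.8% had an unadjusted p under 0.05. The smallest p belonged to Cct6a (log2 -0.43), Pfdn1 (-0.29) and Vbp1 (-0.28). The 22 other ER chaperones and folding enzymes gave 0 calls, with 8 at an unadjusted p under 0.05 and a median of -0.14. Among them, Manf, a secreted ER stress protein, stood at -0.50 (adjusted p = 0.0754), Edem1, which targets misfolded glycoproteins for degradation, at 0.35 (adjusted p = 0.0949) and Ddit3 (CHOP), the transcription factor of sustained stress, at 0.41 (adjusted p = 0.0979 in edgeR's test). Of 18 other mitochondrial chaperones and proteases, Pitrm1, a peptidase that clears import presequences, rose (log2 0.66, SE 0.12, adjusted p = 0.0195 in edgeR's test). Grpel1, the nucleotide exchange factor of Hspa9, fell from 49.4, 58.0, 46.5 and 58.9 CPM to 36.3, 43.2, 24.8 and 41.2 CPM, without overlap (log2 -0.57, SE 0.14, adjusted p = 0.0469 in edgeR's test). Phb, a prohibitin, had the next smallest p (log2 -0.35, adjusted p = 0.245). Hspa9 and its partners Dnaja3 and Grpel1 thus had fold changes of both signs.

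Other measures differed between the populations beside the cytosolic chaperones. Protein-coding transcripts of the mitochondrial chromosome took 2.07%, 2.05%, 2.26% and 0.524% of the counts in mtD2- and 2.96%, 2.23%, 3.00% and 1.99% in mtD2+, higher in mtD2+ in all 4 mice. The summed level of 19 immediate early genes, which are induced within minutes by many stimuli, was 11970 to 24467 CPM in mtD2- and 20360 to 22878 CPM in mtD2+. The mtD2- cells of mouse 4, whose level was above that of the other mtD2- libraries in Hsph1, Hspa1a, Hspa1b, Hsp90ab1 and Dnajb1, also had the highest such sum of all 8 libraries, and mouse 4 was the one mouse in which the sum was lower in mtD2+. Of the 19 genes, Atf3 (log2 0.80, adjusted p = 0.0356) and Ier3 (0.74, adjusted p = 0.042) rose in edgeR's test, and Zfp36 (0.75, adjusted p = 0.0539) did not pass. The 12 fibroblast and adipocyte precursor markers summed to 852 to 1467 CPM in mtD2- and 250 to 314 CPM in mtD2+, and 7 of the 12 were lower. The 8 adipocyte markers summed to 223 to 294 CPM in mtD2- and 215 to 426 CPM in mtD2+, with 0 called in edgeR and 3 at an unadjusted p under 0.05. No gene of these 3 lists was at 0 in all libraries, and the part of these measures in the result was not tested.

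The 8 calls did not rest on the mice equally. Hsph1, Dnaja1 and Hspe1 passed whichever mouse was left out, with adjusted p from 0.0041 to 0.0414 in edgeR's test. Hsp90aa1, Hsp90ab1 and Hspa8 no longer passed without mouse 1 or without mouse 3, at log2 fold changes of 0.56 to 0.91 over the 4 omissions. Hspa1b passed without mouse 4 but not without any of the others, and Dnajb13 passed in none of the 4 fits. The number of members higher in mtD2+ was 3 without mouse 1, 6 without mouse 2, 3 without mouse 3 and 9 without mouse 4, and 0 were lower each time. Calls fell over all genes too: 519 genes were higher with all mice, and 169, 192, 120 and 432 without mice 1 to 4. Between 13924 and 14119 genes were tested in the fits that left out a mouse.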

How the data were processed

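RNA of 8 sorted macrophage populations (4 mice, mtD2- and mtD2+ of each) was amplified with a SMARTer Ultra-Low kit, per the labels. Per the submitters' processing notes, the authors used GRCm38, STAR 2.0.4b, bcl2fastq, and Subread's featureCounts 1.45. The sources used here give neither their options nor the strandedness of counting. The authors deposited whole-number counts per Ensembl gene, which were tested, and CPM and RPKM values made from them, which were not. Symbols and gene types came from the GENCODE M21 annotation, in which 40340 of 41388 identifiers had a symbol. Gene spans and exon lengths came from the authors' count tables.

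Counts were tested with edgeR 4.0.16 (R 4.3.3) (quasi-likelihood F test, TMM scaling), with mouse as a blocking term. Its expression filter (minimum count 10, minimum total 15, proportion 0.7) kept 13933 genes. Calls were made at a Benjamini-Hochberg adjusted p under 0.05 over all of them, and the SE is the log2 fold change over the square root of F. The CPM printed are TMM-scaled, and levels per kilobase divide them by the union of exons. The pairing comes from the labels, whose mouse identifier is shared by the mtD2- and mtD2+ library of a mouse. Deviations from the group means correlated within a mouse at r = 0.039, 0.070, 0.145 and 0.251 for mice 1 to 4, and in mouse 1 the highest r with a library of another mouse was larger (0.058). The labels give each library its own mouse within a group, and no library repeated another of its group. The smallest count of a member that passed was 493 in any library. A check of the fit on simulated counts left mouse effects out, so it does not bear on the blocking by mouse.

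The members and lists were chosen with earlier results of these data known. The text names every member that passed and the 4 members of each compartment with the smallest p. From each list of other folding genes and of immediate early genes, it names the 3 with the smallest p. The macrophage, fibroblast and adipocyte marker lists are given by sums and counts, with the macrophage genes that passed. Marker lists of endothelial, mesothelial, dendritic, lymphocyte and neutrophil cells are not described. Any further gene is named as a relative or for a trait given beside it. Of the rule's names, 10 were processed pseudogenes with at most 29 counts in a library and were left out. Alternatives were a fit without the block, other scalings, filters and tests (DESeq2 1.42.0, voom of limma 3.58.1), protein-coding genes alone, summed Hspa1a and Hspa1b, and leaving out each mouse.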

Additional observations from a re-analysis of the deposited data

Results flagged for a closer look

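The levels of named members and the summed levels of the set and its compartments gave 50 groups of 4 libraries. In 3 of these 50, 1 library stood far from the other 3, and chance alone marks about 1 in 20 such groups. Hsph1 was at 736 CPM in the mtD2+ library of mouse 4, above the other mtD2+ libraries (226 to 308). Hspa8 was at 868 CPM in the mtD2+ library of mouse 3, below the others (1109 to 1149). Hspe1 was at 117 CPM in the mtD2+ library of mouse 3, below the others (175 to 185). All 3 values kept the direction of the gene's change within their mouse.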

How the results depend on the processing

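The count of members higher in mtD2+ was 8 with the replicate block and 2 without it (Dnaja1 and Hspe1). In the paired fits it was 7 to 11 under other scalings, filters and tests and with Hspa1a and Hspa1b summed, and 3 to 9 when a mouse was left out, lowest without mouse 1 or mouse 3. The count of lower members was 0 in every setting run. Over all genes, 767 calls became 218 without the block, 1790 with DESeq2, and 215, 273, 166 and 555 without mice 1 to 4. Scaling by library totals moved the split of all calls from 519 higher and 248 lower to 407 and 349. The ER median was -0.13, -0.19 with library totals, and between -0.21 and -0.080 when a mouse was left out. The cytosolic median lay between 0.22 and 0.36 over the settings run for it, which leave out the summed Hspa1a and Hspa1b. None of the members that passed, of the 4 in each compartment with the smallest p, or Hspa1a changed direction. The direction of the other members named in the text was not followed over the settings. Depth limits the least abundant members most, and 4 pairs allow no exact paired p under 0.125. The causes of these changes were not tested.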
